A study of Homo sapiens with 24 samples.

Results

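The IFIT family consists of proteins with tetratricopeptide repeats that are made after interferon exposure and bind RNA. IFIT1 and IFIT5 bind the 5′ ends of RNAs, IFIT2 and IFIT3 act in complexes with IFIT1, and the proteins hold back the translation of viral RNA. In the canonical route, type I interferon binds the receptor pair IFNAR1 and IFNAR2, the kinases JAK1 and TYK2 are activated, and the trimeric factor ISGF3, of which IRF9 is the DNA-binding subunit, binds the interferon-stimulated response element (ISRE) in the promoters of its target genes. Described here are the 4 family members IFIT1, IFIT2, IFIT3 and IFIT5, taken as every probe that the annotation of the HumanHT-12 v4 BeadChip assigns to them. They were 4 of 20046 genes with a single symbol, and 7 of the 47231 probes on the array. The family was chosen by its measured changes on these same arrays, of opposite direction in the lines, and by its levels in DMSO, so both are given as descriptions, with standard errors and with no test.

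TMD8 is a diffuse large B-cell lymphoma (DLBCL) line of the activated B-cell (ABC) type, and DoHH2 is a DLBCL line of the germinal center B-cell (GCB) type. Both were exposed for 8 h to 100 nM ITF-A, to 200 nM ITF-B or to DMSO. ITF-A and ITF-B are inhibitors of histone deacetylases, enzymes that remove acetyl groups from histones and other proteins. Each compound had its own DMSO arrays in each line, which gave 8 groups of 3 arrays, numbered by experiment, on 2 chips. The 24 arrays had median intensities of 93.2 to 112, correlated at r = 0.993 to 0.996 within a group, and were set to a common median of 6.15 on the log2 scale. The standard error of a change with 1 compound had a median of 0.0750 over all probes. In bulk RNA of this kind, fewer cells that express a gene and less RNA in each cell cannot be told apart.

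In DMSO, 9 of 10 ABC markers were higher in TMD8 than in DoHH2 (limma, adjusted p below the threshold of 0.05), where 21.2% of all genes were higher in TMD8 and 22.6% were lower. The markers of the GCB type were mixed, with 4 of 7 higher in TMD8 (57.1%) and 2 lower (28.6%). MME and STAP1 were lower in TMD8, by log2 differences of -2.14 and -2.29, but BCL6 and LMO2 were higher in TMD8, by 3.31 and 3.05. All 6 B-cell markers measured (of 7 listed) fell after either compound in TMD8 (100%, against 17.8% and 17.4% of all genes). In DoHH2, 3 of them fell after ITF-A (50%, against 17.2%) and 4 after ITF-B (66.7%, against 17.0%). Their mean level lay between 8.47 and 8.65 on treated TMD8 arrays, against 9.54 to 9.62 on DMSO arrays, and between 8.09 and 8.18 on treated DoHH2 arrays, against 8.64 to 8.80. This shift ran the same way in both lines, and its part in the results was not tested. Of 13 markers of T cells, myeloid, epithelial and stromal cells, 3 rose after each compound in each line, namely CD14, CSF1R and COL1A1, and 1 fell, with ITF-B in DoHH2. The 3 rises were 23.1% of the 13, where 18.8% to 19.3% of all genes rose, and the 1 fall was 7.69%, where 17.0% fell. The mean over the 13 was 6.27 to 6.35 on treated TMD8 arrays, against 6.12 to 6.18 with DMSO, and 6.18 to 6.27 on treated DoHH2 arrays, against 6.14 to 6.18. The T-cell markers CD3D, CD3E and CD3G averaged 5.96, 6.03 and 5.99, below the array median.

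IFIT1, IFIT3 and IFIT5 have promoters in the RefSeq table of GRCh38.p14, and these are shown because all 4 of them hold matches to the core of the ISRE. The family lies in 1 cluster on chromosome 10, in the order IFIT2, IFIT3, IFIT1B, IFIT1 and IFIT5, between LIPA and SLC16A12. Each sequence runs from 190 bases before the annotated start to 10 bases after it, on the plus strand. Capitals mark the ISRE core, searched on both strands as GAAA, any 2 bases and GAAA. All matches lay on the reverse strand and therefore read TTTC, any 2 bases and TTTC. Positions are counted from the start, with -1 as the base before it and 1 as the first base after it.
IFIT1 (chr10:89392433-89392632): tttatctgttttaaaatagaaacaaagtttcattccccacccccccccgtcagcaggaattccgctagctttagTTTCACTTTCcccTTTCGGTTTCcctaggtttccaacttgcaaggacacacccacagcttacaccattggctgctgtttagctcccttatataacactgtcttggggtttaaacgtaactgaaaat
IFIT3 start 1 (chr10:89327807-89328006): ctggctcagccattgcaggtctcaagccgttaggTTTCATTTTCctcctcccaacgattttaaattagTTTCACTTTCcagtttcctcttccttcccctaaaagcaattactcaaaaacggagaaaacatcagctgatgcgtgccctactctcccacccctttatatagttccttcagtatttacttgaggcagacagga
IFIT3 start 2 (chr10:89332339-89332538): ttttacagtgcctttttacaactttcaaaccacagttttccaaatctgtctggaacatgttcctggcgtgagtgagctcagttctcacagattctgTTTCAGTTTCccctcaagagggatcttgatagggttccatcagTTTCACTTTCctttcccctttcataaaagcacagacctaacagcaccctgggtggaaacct
IFIT5 (chr10:89414378-89414577): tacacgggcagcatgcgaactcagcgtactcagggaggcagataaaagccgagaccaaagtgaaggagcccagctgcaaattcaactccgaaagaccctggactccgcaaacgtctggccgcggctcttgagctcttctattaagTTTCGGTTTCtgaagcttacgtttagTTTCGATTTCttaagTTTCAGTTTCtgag

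IFIT1 held 2 matches, at -116 to -107 and at -103 to -94, separated by a run of 3 C bases. The first start of IFIT3 held matches at -156 to -147 and at -122 to -113, and its second start held matches at -94 to -85 and at -51 to -42. IFIT5 held 3 matches close to its start, at -45 to -36, at -19 to -10 and at -4 to 6. Of 35116 promoters that run from 250 bases before a start to 50 after it, 3.57% held at least 1 such match, 0.259% held at least 2 and 0.037% held at least 3. Among 46 interferon-stimulated genes other than IFIT, 37 had promoters in the table, and 64% of their 50 promoters held a match. The motif of STAT dimers (GAS: TTC, any 3 bases, GAA) had no match in the 4 windows, where 7.66% of all promoters held one. The AP-1 motif (TGANTCA, on both strands) matched once, at 22 to 28 after the start of IFIT5 and beyond the stretch shown, where 7.71% of all promoters held one. A match of letters does not show that a factor was bound in these cells. The map of motif matches shows their spacing.

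**Figure D1:**
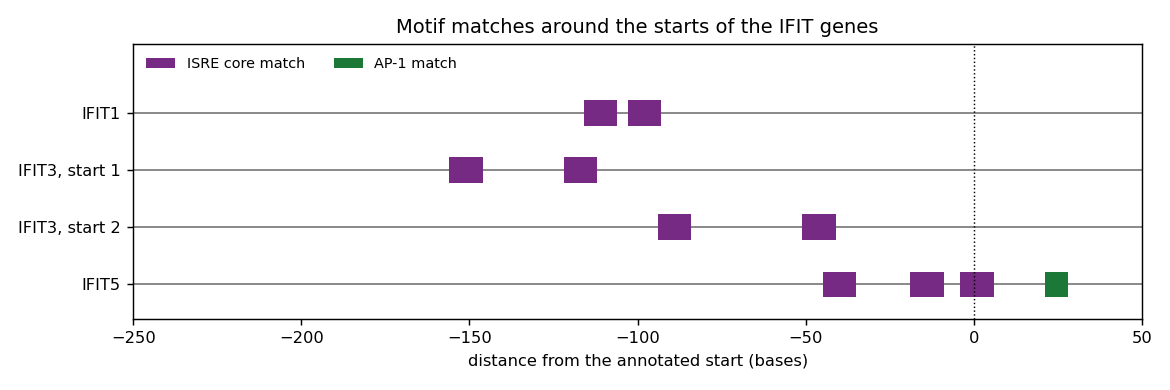
Motif matches around the annotated starts of IFIT1, IFIT3 and IFIT5. The x axis gives the distance from the start in bases, each horizontal line is a promoter from 250 bases before to 50 bases after the start, and boxes mark matches to the ISRE core and to the AP-1 motif. IFIT1 and both starts of IFIT3 hold 2 ISRE core matches each, and IFIT5 holds 3 beside its start.

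IFIT1, which recognizes the 5′ end of RNAs that lack the host's cap methylation, was lower with either compound in TMD8 and higher with either compound in DoHH2. Its main probe, ILMN_1707695, read 6.95, 6.72 and 6.88 (normalized log2 intensity, experiments 1, 2 and 3) with ITF-A in TMD8, against 8.68, 8.98 and 8.72 in the DMSO arrays. With ITF-B the TMD8 arrays read 7.11, 6.96 and 7.05, against 8.97, 8.95 and 8.70 with DMSO. Every treated TMD8 array lay below every DMSO array. The DoHH2 arrays read 10.77, 10.71 and 10.49 with ITF-A, against 8.53, 8.25 and 8.03 with DMSO. With ITF-B they read 10.68, 10.53 and 10.54, against 8.45, 8.18 and 8.04 with DMSO. All 6 treated DoHH2 arrays lay above all 6 DMSO arrays of that line. Over all genes, this pattern of no overlap was seen downwards in TMD8 for 15.2% and upwards in DoHH2 for 17.3%.

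The changes of IFIT1 were therefore of opposite sign and of more than 3-fold in both lines. In TMD8 the log2 change was -1.95 ± 0.0922 for ITF-A and -1.83 ± 0.0922 for ITF-B (SE, n = 3 arrays in each group), so that IFIT1 was 3.85-fold and 3.57-fold higher with DMSO. In DoHH2 it was 2.39 ± 0.0922 for ITF-A and 2.36 ± 0.0922 for ITF-B, or 5.23-fold and 5.14-fold higher than with DMSO. No experiment departed from these directions. The changes of single experiments lay between -2.26 and -1.65 in TMD8 and between 2.23 and 2.50 in DoHH2.

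The second IFIT1 probe, ILMN_1699331, did not show this response. Its changes were -0.11 and -0.07 in TMD8 and 0.08 and 0.20 in DoHH2, each with a standard error of 0.0814. Its raw intensities of 94.5 to 129 lay near the array medians, and its group means of 6.16 to 6.40 were at most at the 65.4th percentile of all probes. The response of IFIT1 thus rests on 1 probe.

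IFIT2, a partner of IFIT1 and IFIT3 that has been tied to apoptosis when overexpressed, had the largest positive change of the 4 genes in DoHH2. In TMD8 it read 6.86, 6.65 and 6.86 with ITF-A, against 7.84, 8.04 and 7.93 with DMSO, on its single probe ILMN_1739428. With ITF-B it read 6.84, 6.78 and 6.90, against 7.97, 8.04 and 7.87 with DMSO. The treated and the DMSO arrays of TMD8 did not overlap. In DoHH2 it read 10.51, 10.49 and 10.39 with ITF-A, against 7.47, 7.39 and 7.12 with DMSO. With ITF-B it read 10.45, 10.27 and 10.46, against 7.42, 7.37 and 7.29 with DMSO. The gap between the groups was wider here than the whole range of IFIT2 in TMD8.

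IFIT2 changed by -1.15 ± 0.0795 and -1.12 ± 0.0795 (log2) with ITF-A and ITF-B in TMD8, which made it 2.21-fold and 2.17-fold higher with DMSO. In DoHH2 the changes were 3.14 ± 0.0795 and 3.04 ± 0.0795, or 8.80-fold and 8.20-fold above DMSO. Treated DoHH2 arrays had IFIT2 at the 96.2nd and 96.0th percentile of all probes, against the 78.7th and 79.0th with DMSO. In TMD8 the treated arrays were at the 72.9th and 73.6th percentile, and the DMSO arrays at the 83.6th and 83.7th.

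IFIT3, which stabilizes IFIT1 and joins it in RNA binding, differed most between the lines in DMSO. On its brightest probe, ILMN_1701789, it read 6.02, 6.04 and 6.02 with ITF-A in TMD8, against 7.22, 7.40 and 6.97 with DMSO. With ITF-B it read 6.21, 5.95 and 6.02, against 7.07, 7.20 and 6.996 with DMSO. The treated TMD8 arrays sat below the array median of 6.15 with 1 exception, the ITF-B array of experiment 1. In DoHH2 it read 11.04, 10.93 and 10.97 with ITF-A, against 10.10, 10.33 and 10.11 with DMSO. With ITF-B it read 11.14, 10.96 and 10.98, against 10.32, 10.36 and 10.09 with DMSO. Again no treated array overlapped a DMSO array of its line.

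The log2 changes of IFIT3 were -1.17 ± 0.0849 and -1.03 ± 0.0849 in TMD8 and 0.80 ± 0.0849 and 0.77 ± 0.0849 in DoHH2, for ITF-A and ITF-B in that order. These correspond to ratios of 2.25-fold and 2.04-fold higher with DMSO in TMD8, where the treated arrays lay at the array median and the size is not firm, and 1.74-fold and 1.71-fold higher with treatment in DoHH2. The other IFIT3 probes had the same directions. ILMN_1664543 changed by -0.32 and -0.29 in TMD8 and by 0.89 and 0.71 in DoHH2, and ILMN_2239754 by -0.46 and -0.67 in TMD8 and by 0.80 and 0.68 in DoHH2. The DoHH2 changes of the 3 probes lay between 0.68 and 0.89, while the TMD8 changes were larger on the brightest. For ILMN_1664543 the ITF-B and DMSO arrays of TMD8 overlapped. Raw intensities of the main probe in treated TMD8 arrays, 91.3 to 104, lay within or just below the range of the array medians. The mean TMD8 change of -1.10 became -1.75 when a smaller constant of 16 in place of 50 was added after background correction, so its size depends on the background step.

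IFIT5, which binds the 5′ triphosphate of RNAs as a monomer, did not share the opposite response. It read 6.46, 6.45 and 6.30 with ITF-A in TMD8, against 6.85, 6.73 and 6.73 with DMSO, and 6.50, 6.46 and 6.44 with ITF-B, against 6.65, 6.71 and 6.70. The TMD8 arrays did not overlap. In DoHH2 it read 6.47, 6.45 and 6.56 with ITF-A, against 6.59, 6.63 and 6.48 with DMSO, and 6.54, 6.66 and 6.49 with ITF-B, against 6.47, 6.59 and 6.57. Here the treated and the DMSO arrays overlapped with both compounds. Its log2 changes were -0.37 ± 0.0679 and -0.22 ± 0.0679 in TMD8, and -0.07 ± 0.0679 and 0.02 ± 0.0679 in DoHH2. The 95% intervals of the DoHH2 changes ran from -0.21 to 0.07 with ITF-A and from -0.12 to 0.15 with ITF-B. The mean TMD8 change of -0.29 was -0.45 with the smaller constant of 16. IFIT5 was thus lower in treated TMD8 and not separated from DMSO in DoHH2, on a probe between the 65.4th and the 72.7th percentile.

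**Figure D2:**
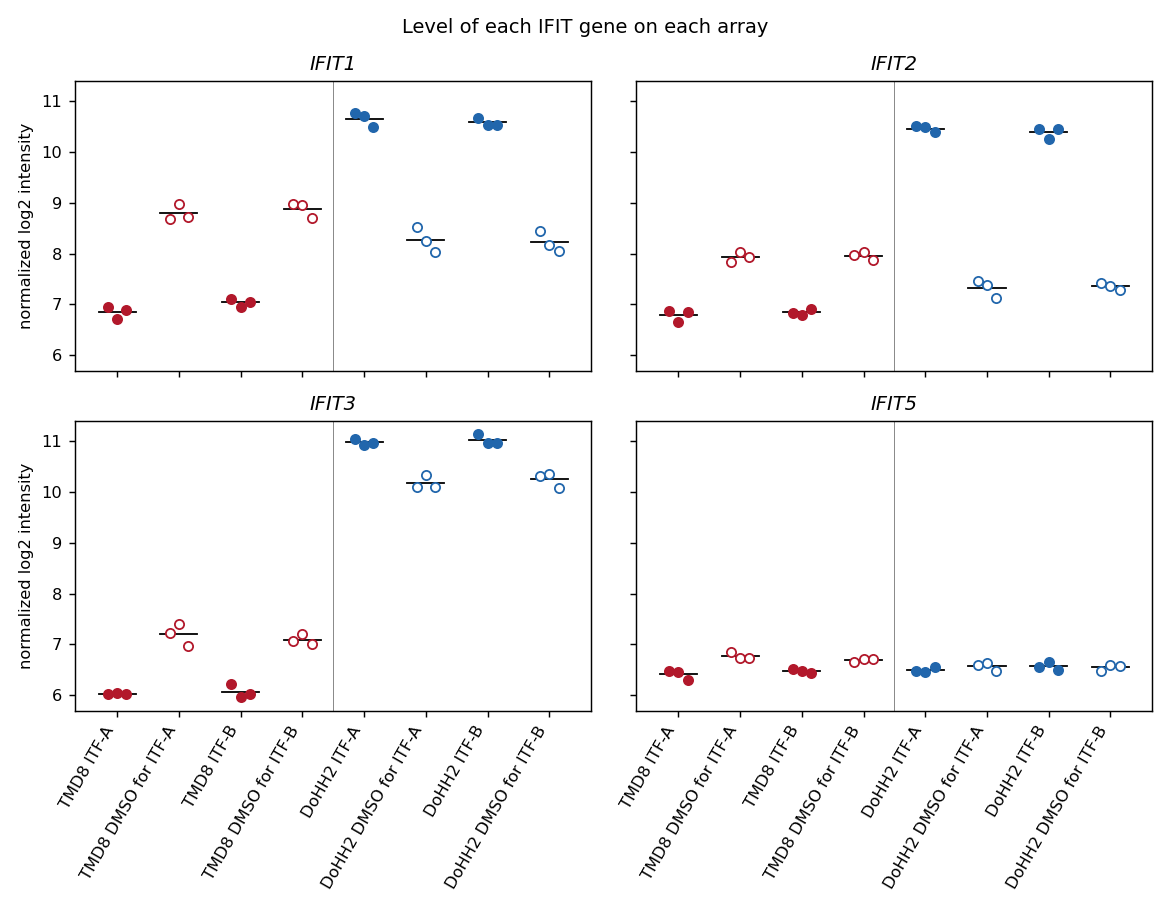
Normalized log2 intensity of the main probe of each IFIT gene on each array. Filled points are treated arrays, open points are DMSO arrays, red is TMD8, blue is DoHH2, and black lines are means of 3 arrays. Treated arrays of IFIT1, IFIT2 and IFIT3 lie below DMSO in TMD8 and above DMSO in DoHH2, while IFIT5 stays between 6.30 and 6.85 throughout.

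**Figure D3:**
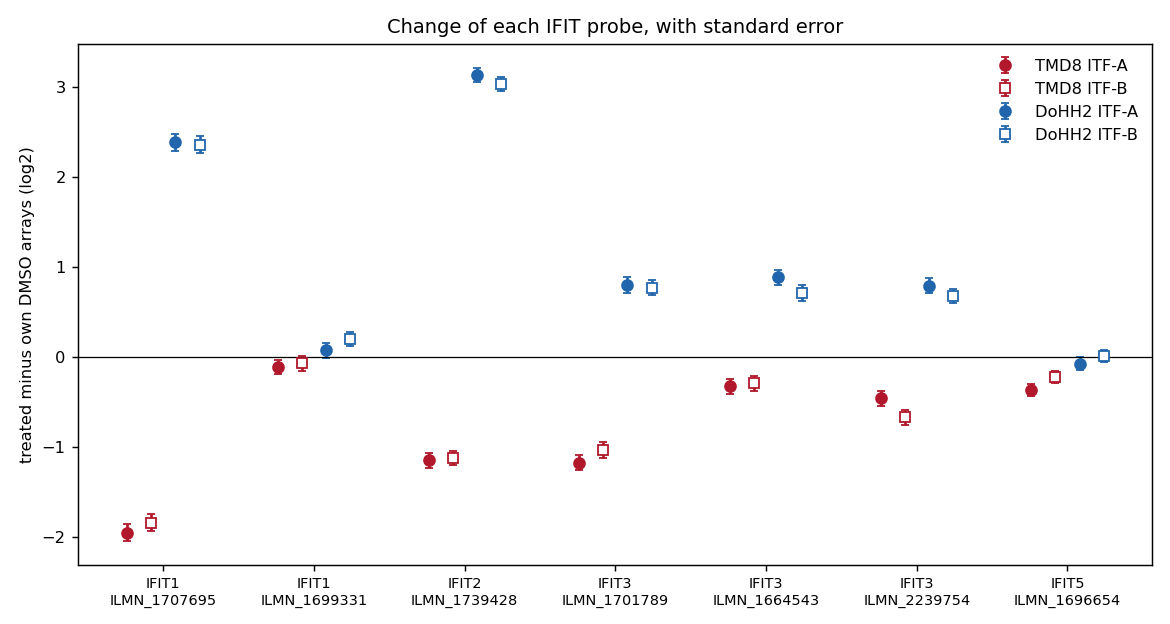
Log2 change of each of the 7 IFIT probes against the DMSO arrays of the same compound and line. Points are estimates from the linear model and bars are standard errors. Probes of IFIT1, IFIT2 and IFIT3 lie on opposite sides of 0 in TMD8 and DoHH2, but the dim IFIT1 probe ILMN_1699331 stays between -0.11 and 0.20.

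As the mean of both compounds, the TMD8 change minus the DoHH2 change was -4.27 ± 0.0922 (log2) for IFIT1, -4.22 ± 0.0795 for IFIT2, -1.89 ± 0.0849 for IFIT3 and -0.27 ± 0.0679 for IFIT5. Over all genes, this difference between the lines was lower in TMD8 for 14.8% and higher in TMD8 for 15.9% at the threshold. A fall with both compounds in TMD8 together with a rise with both in DoHH2 was called for 143 of 20046 genes, or 0.713%. Since the members were chosen for this pattern, their own place in that share is no finding. IFIT1, IFIT2 and IFIT3 had the same directions on each chip alone. This follows from treated and DMSO arrays that did not overlap, so it is no further support. Chip 2 held 1 TMD8 array of each group and chip 1 held 1 DoHH2 array of each group. In those cases 1 array was set against 1. IFIT1 changed by -1.94 on chip 1 and -1.80 on chip 2 in TMD8, and by 2.48 and 2.32 in DoHH2. IFIT2 changed by -1.17 and -1.05 in TMD8 and by 3.22 and 3.02 in DoHH2. IFIT3 changed by -1.13 and -1.03 in TMD8 and by 0.88 and 0.74 in DoHH2. Each chip held arrays of both lines, and an experiment's treated and DMSO arrays shared a chip.

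The levels in DMSO did not follow one order across the family. IFIT1 averaged 8.83 ± 0.15 in TMD8 and 8.25 ± 0.21 in DoHH2 (SD, n = 6 each), and the groups did not overlap. IFIT2 averaged 7.95 ± 0.0840 in TMD8 and 7.34 ± 0.12 in DoHH2, also without overlap. Over all genes, 21.2% were higher and 22.6% lower in TMD8 with DMSO at the threshold. The share of all genes without overlap between the lines was not counted. With the chips taken into account, IFIT1 and IFIT2 were 1.55-fold and 1.54-fold higher in TMD8 with DMSO. IFIT3 was the reverse, at 7.14 ± 0.16 in TMD8 and 10.22 ± 0.13 in DoHH2, 8.26-fold higher in DoHH2. All 3 IFIT3 probes had that direction, with ratios of 7.22-fold for ILMN_1664543 and 3.25-fold for ILMN_2239754. In the DMSO sets of TMD8 the first of these averaged 6.34 and 6.36 and the second 6.57 and 6.70, little above the array median of 6.15. The main probe averaged 7.20 and 7.09 there, and its TMD8 change moved with the background step. The size of all 3 ratios, 8.26-fold included, therefore depends on that step. IFIT5 averaged 6.73 ± 0.0659 in TMD8 and 6.56 ± 0.0649 in DoHH2, a log2 difference of 0.19 ± 0.0495.

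With treatment the lines stood far apart for IFIT1, IFIT2 and IFIT3. Averaged over both compounds, IFIT1 was at 6.94 in treated TMD8 and 10.62 in treated DoHH2, 12.8-fold higher in DoHH2. IFIT2 was at 6.82 in treated TMD8 and 10.43 in treated DoHH2, a 12.2-fold difference. The TMD8 changes of both genes moved with the background step, so the size of these ratios is not firm. IFIT3 was at 6.04 in treated TMD8, which was not above the array median of 6.15, and at 11.00 in treated DoHH2, a ratio of 31.1-fold whose size depends on the background step. IFIT5 was at 6.44 and 6.53, 1.07-fold higher in DoHH2. In order of level, IFIT1 and IFIT2 ran from treated DoHH2 through TMD8 in DMSO and DoHH2 in DMSO to treated TMD8, and none of these steps overlapped. Within a step both sets of arrays overlapped, except IFIT1 in treated TMD8, which averaged 7.04 with ITF-B and 6.85 with ITF-A. For IFIT3 treated DoHH2 ranked above DoHH2 in DMSO, TMD8 in DMSO and treated TMD8, again without overlap between these steps. The share of all genes with steps that do not overlap was not counted. For IFIT5 the DMSO sets of TMD8 were highest, and each of the other groups overlapped its neighbour in the order.

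Both DMSO sets of a line carried the same treatment. Their levels and the changes against them were part of the choice of genes, so their differences are given as descriptions with no test. In TMD8, DMSO for ITF-A minus DMSO for ITF-B was -0.08 (log2) for IFIT1, -0.02 for IFIT2, 0.11 for IFIT3 and 0.08 for IFIT5. In DoHH2 the differences were 0.05, -0.03, -0.08 and 0.02, in the same order of genes. Over all genes, 0.0449% were called between the DMSO sets of TMD8 and 0.00499% between those of DoHH2 (limma over 47231 probes, adjusted p). ITF-A and ITF-B were used at different doses, so their values stand side by side and were not compared.

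Across the 24 arrays, IFIT1 and IFIT2 ran together at r = 0.962, and at r = 0.997 over the 12 TMD8 arrays and r = 0.996 over the 12 DoHH2 arrays. IFIT3 correlated with IFIT1 at r = 0.982 in TMD8 and 0.970 in DoHH2, but at 0.746 over all arrays, where its level in DMSO differed. IFIT5 correlated with IFIT1 at r = 0.903 in TMD8 and -0.23 in DoHH2. These values describe arrays that share line, treatment and chip, and they are given with no p.

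The other genes of the pathway were read from lists ordered by role, each gene by its brightest probe. A single gene's change is the log2 mean over both compounds, with a standard error of 0.0457 to 0.0671 for the genes named by rule. Of 27 interferon ligands and receptors, 2 rose and 4 fell in TMD8 after each compound, where 19.2% and 19.3% of all genes rose and 17.8% and 17.4% fell (ITF-A first). For DoHH2 the counts were 3 up and 4 down after ITF-A and 2 up and 1 down after ITF-B, where 19.0% and 18.8% of all genes rose and 17.2% and 17.0% fell. The median change of this list was 0.01 for ITF-A in TMD8 and -0.05 for ITF-A in DoHH2, near the medians over all genes, which lay within 0.01 of 0 in all 4 comparisons. The type I receptor chains and IFNB1 were named after their values were seen. IFNAR1 changed by 0.00 in TMD8 and 0.07 in DoHH2 and did not pass, and IFNAR2 changed by -0.36 in TMD8 and -0.29 in DoHH2, although in DoHH2 it did not pass with ITF-B alone. IFNGR1, the ligand-binding chain of the receptor for interferon gamma, rose by 0.89 in TMD8 and 1.12 in DoHH2, while IFNGR2, its signaling chain, changed by -1.43 and -0.94. IL10RB, a chain of the receptor for type III interferon, fell by 0.24 in TMD8 and rose by 0.73 in DoHH2, the direction of IFIT1 to IFIT3. It was named for its likeness to IFIT2 on these arrays, so this shared direction follows from the choice. IFNLR1, another receptor chain of this list named after its values were seen, changed by -0.95 in TMD8 and -0.18 in DoHH2. In DoHH2 its change did not pass with ITF-B alone. The interferon genes themselves had mean levels between 5.78 and 6.26 over the 24 arrays. IFNB1 averaged 6.35 for ITF-A and 6.37 for ITF-B in TMD8, against 6.02 and 5.94 with DMSO, and 5.98 and 6.07 in DoHH2, against 5.76 and 5.90 with DMSO. Its changes of 0.32 and 0.43 in TMD8 passed (limma, adjusted p = 0.000789 and 1.6e-05). In DoHH2 the change of 0.22 with ITF-A passed (limma, adjusted p = 0.0267) and that of 0.17 with ITF-B did not (limma, adjusted p = 0.123). Its DMSO means in both lines and its treated means in DoHH2 lay below the array median of 6.15. The probe was thus near the floor, and the size of these changes is not firm.

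Of 14 JAK kinases, ISGF3 subunits and interferon regulatory factors (IRFs) on the list, 11 were analysed. In TMD8, 3 rose (27.3%, against 19.2% and 19.3% of all genes) and 6 fell (54.5%, against 17.8% and 17.4%) after either compound. In DoHH2, 5 rose after ITF-A (45.5%, against 19.0%) and 4 after ITF-B (36.4%, against 18.8%), and 3 fell after each (27.3%, against 17.2% and 17.0%). The median change was -0.39 and -0.47 in TMD8 and 0.09 and 0.18 in DoHH2. JAK1, a kinase of the interferon receptors, rose by 0.84 in TMD8 and 0.79 in DoHH2. IRF9, the DNA-binding subunit of ISGF3, fell in both lines. It averaged 9.12 for ITF-A and 9.24 for ITF-B in TMD8, against 10.40 and 10.50 with DMSO. In DoHH2 it averaged 9.05 and 9.08, against 9.88 and 9.93 with DMSO. IRF9 thus had the direction opposite to IFIT1 and IFIT2 in DoHH2.

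IRF7, a regulator of type I interferon genes that is itself interferon-induced, fell by 0.99 in TMD8 and rose by 0.24 in DoHH2 as the mean of both compounds (limma, adjusted p = 0.000802). With ITF-B alone its DoHH2 change of 0.19 did not pass (limma, adjusted p = 0.0899). IRF4, a factor of plasma cell differentiation that was named after its values were seen, fell by 0.93 in TMD8 and rose by 0.67 in DoHH2. IRF8, a factor of germinal center B cells, rose in both lines, by 0.52 in TMD8 and 1.57 in DoHH2. IRF5, which acts below Toll-like receptors, changed by -1.59 in TMD8 and -0.46 in DoHH2. The change was lower in TMD8 than in DoHH2 for 6 of the 11 genes and higher for 0 (limma, adjusted p), with 7 lower and 0 higher at an unadjusted p under 0.05.

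Inhibitors of interferon signaling, 12 genes, showed 3 rises (25%) and 5 falls (41.7%) after either compound in TMD8. In DoHH2, 2 rose after ITF-A (16.7%) and 1 after ITF-B (8.33%), and 4 fell after each (33.3%). The shares that rose were near or below those of all genes, 18.8% to 19.3%, and the shares that fell were above those of all genes, 17.0% to 17.8%. PTPN6, a phosphatase (SHP-1) that acts on JAK kinases, changed by -2.20 in TMD8 and -1.03 in DoHH2. IRF2BP1, a corepressor of IRF2, rose by 0.56 in TMD8, and PIAS1, an inhibitor of STAT binding to DNA, rose by 0.32 in both lines.

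Of 23 sensors of nucleic acids with their adaptors and kinases, 14 fell after either compound in TMD8 (60.9%, against 17.8% and 17.4% of all genes). There 2 rose after ITF-A (8.7%, against 19.2%) and 1 after ITF-B (4.35%, against 19.3%). In DoHH2, 9 fell after ITF-A (39.1%, against 17.2%) and 10 after ITF-B (43.5%, against 17.0%). Rises there numbered 2 after each (8.7%, against 19.0% and 18.8%). The pattern of IFIT1 to IFIT3 was called for 0 of the 23 (limma, adjusted p, and 0 at an unadjusted p under 0.05), a count that is no result about the list, since 0.713% of all genes were called. TLR7, a receptor of single-stranded RNA, fell by 1.95 in TMD8 and changed by -0.07 in DoHH2. IFI16, a DNA sensor, changed by -1.90 in TMD8 and -1.30 in DoHH2. TANK, an adaptor of TBK1, rose by 1.02 in DoHH2, and its change of 0.18 in TMD8 passed as the mean of both compounds but with neither alone, and not without experiment 1 of ITF-A, ITF-B or DMSO for ITF-A or without experiment 2 of DMSO for ITF-A (0.15 to 0.17). TRIM25, the ligase of RIG-I, rose by 0.27 in TMD8. Its DoHH2 change of 0.15 passed as the mean of both compounds, but was -0.018 when arrays were scaled to a common median in place of quantile normalization.

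**Figure D4:**
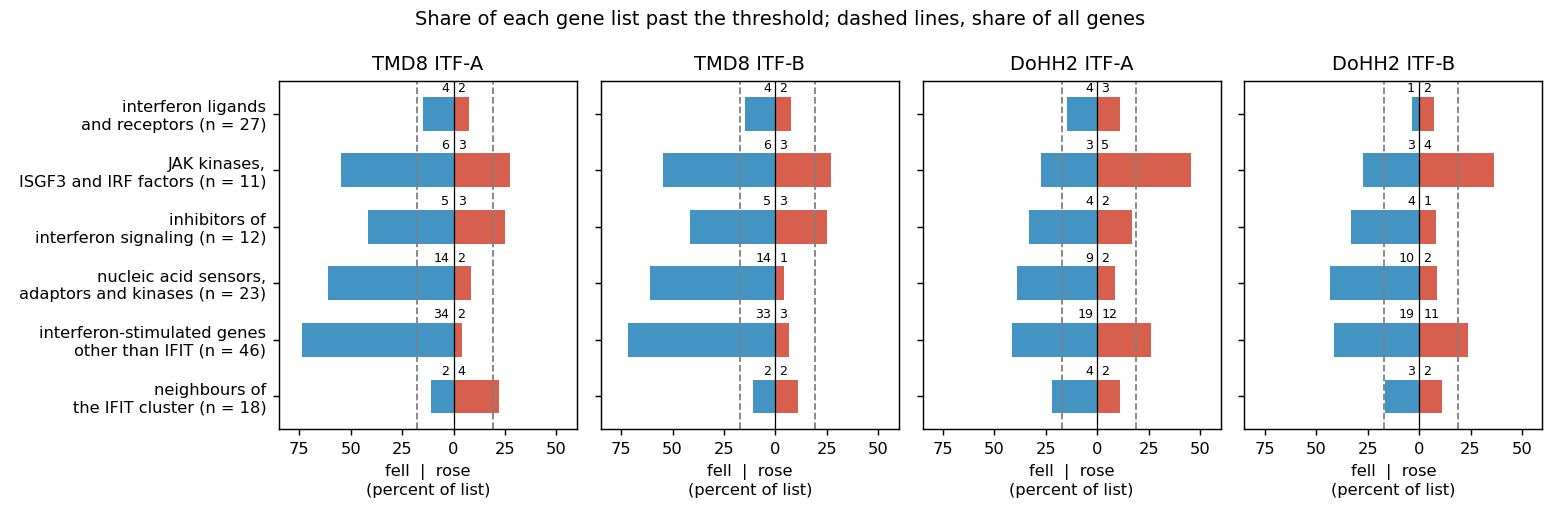
Share of each pathway list that fell (blue, to the left) or rose (red, to the right) in each comparison, in percent of the genes measured (x axis), with the counts above the bars. Dashed lines mark the share of all 20046 genes in that direction. Of the interferon-stimulated genes, 34 and 33 of 46 fell in TMD8, against 19 of 46 with either compound in DoHH2.

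The 46 interferon-stimulated genes other than IFIT mostly fell in TMD8 and split in DoHH2. In TMD8, 34 fell after ITF-A (73.9%) and 33 after ITF-B (71.7%), against 17.8% and 17.4% of all genes. Rises numbered 2 (4.35%) and 3 (6.52%), against 19.2% and 19.3%, and the median changes were -1.01 and -1.03. In DoHH2, 19 fell after each compound (41.3%, against 17.2% and 17.0%). There 12 rose after ITF-A (26.1%, against 19.0%) and 11 after ITF-B (23.9%, against 18.8%), with median changes of -0.06 and -0.08. The negative changes of IFIT1, IFIT2 and IFIT3 in TMD8 therefore had the direction of most of the list, and their positive changes in DoHH2 that of its smaller share. The change was lower in TMD8 than in DoHH2 for 37 of the 46 genes (80.4%) and higher in TMD8 for 0 (limma, adjusted p), where 14.8% and 15.9% of all genes were called. At an unadjusted p under 0.05, 40 were lower and 0 higher, and under median scaling 2 were higher at the adjusted threshold.

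Of these 46 genes, 5 fell in TMD8 and rose in DoHH2 with both compounds (10.9%, against 0.713% of all genes), 18 fell in both lines, as did 9.92% of all genes, and 2 rose in both. The 5 were ISG15, OAS1, IFITM1, SAMD9 and GBP2, and they were named after their values were seen. ISG15, a ubiquitin-like modifier, averaged 9.69 for ITF-A and 9.62 for ITF-B in TMD8, against 11.34 and 11.47 with DMSO. In DoHH2 it averaged 10.56 and 10.51, against 9.59 and 9.68 with DMSO. Its mean changes were -1.75 in TMD8 and 0.90 in DoHH2. IFITM1, a membrane protein that blocks viral entry, changed by -1.33 in TMD8 and 0.76 in DoHH2. OAS1, an oligoadenylate synthetase, changed by -1.31 and 0.44. GBP2, a guanylate-binding GTPase, changed by -0.80 and 0.43, and SAMD9, an antiviral factor, by -0.64 and 0.69.

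MX1, an antiviral GTPase, fell in both lines, with changes of -2.82 in TMD8 and -0.60 in DoHH2. OAS2, another oligoadenylate synthetase, changed by -2.73 in TMD8 and -1.76 in DoHH2, the largest fall of the list in DoHH2. HERC5, the ligase that attaches ISG15, rose by 0.39 in TMD8 and by 2.08 in DoHH2, the largest rise of the list in DoHH2. OASL, a member of the oligoadenylate synthetase family without that activity, rose by 0.77 and by 1.04. In DoHH2, genes of this list thus moved in both directions.

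**Figure D5:**
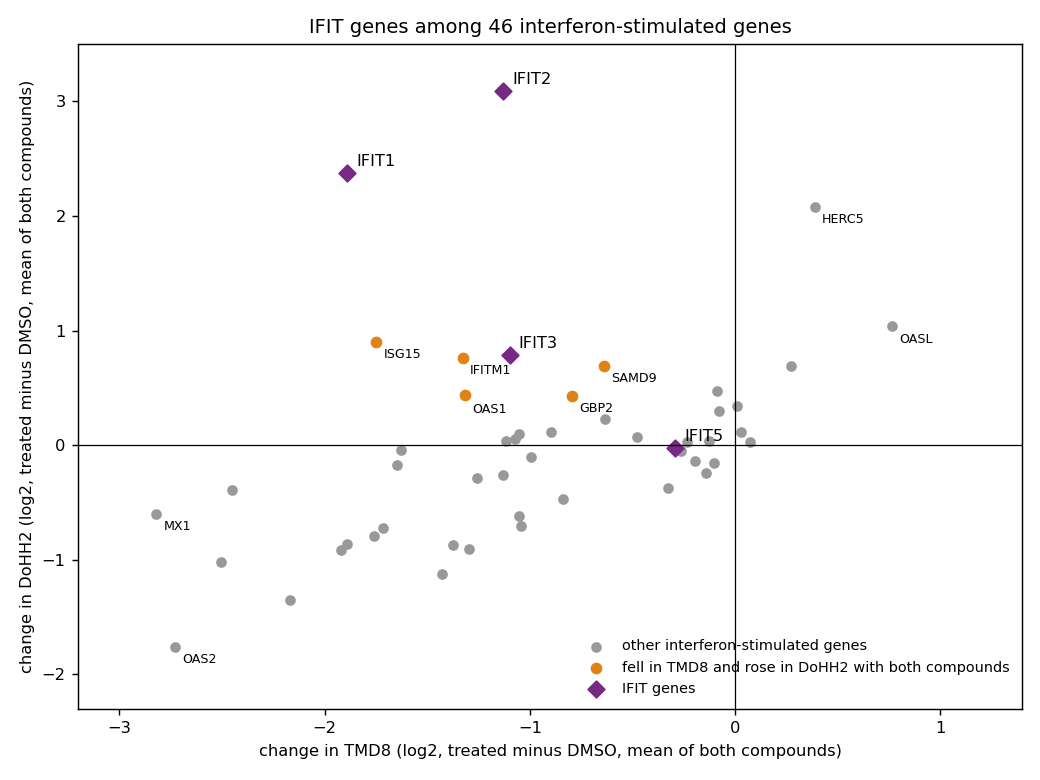
Change in TMD8 (x axis) against change in DoHH2 (y axis), each the log2 difference of treated and DMSO arrays as the mean of both compounds. Grey and orange points are the 46 interferon-stimulated genes, with the 5 that fell in TMD8 and rose in DoHH2 in orange, and purple diamonds are the IFIT genes. IFIT1 and IFIT2 lie at 2.37 and 3.09 on the y axis, IFIT3 lies among the orange points and IFIT5 lies near 0 in DoHH2.

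Of 18 genes in and around the IFIT cluster on chromosome 10, 4 rose and 2 fell in TMD8 after ITF-A, and 2 rose and 4 fell in DoHH2. After ITF-B, 2 rose and 2 fell in TMD8 and 2 rose and 3 fell in DoHH2. These shares of 11.1% to 22.2% were near those of all genes, 17.0% to 19.3%. A fall in TMD8 with a rise in DoHH2 was called for 0 of them (limma, adjusted p, and 0 at an unadjusted p under 0.05), which says nothing about the list, since 0.713% of all genes were called. LIPA, the lysosomal acid lipase beside IFIT2, rose in both lines, by 1.04 in TMD8 and 1.71 in DoHH2. STAMBPL1, a deubiquitinase, changed by -2.11 in TMD8 and -0.75 in DoHH2. PANK1, a kinase of coenzyme A synthesis on the other side, changed by -0.64 in TMD8 and -1.02 in DoHH2. IFIT1B, a relative of IFIT1 inside the cluster that was named after its values were seen, averaged 5.88 over the 24 arrays, below the array median, and changed by -0.05 in TMD8 and 0.09 in DoHH2 without passing.

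Finally, the genes whose profile over the 24 arrays was most like each member were ranked by Pearson r among all other genes, as a description. Closest to IFIT1 were NFKBIA (r = 0.977), the inhibitor of NF-κB, DEPP1 (r = 0.976) and PIGK (r = 0.935). NFKBIA changed by -0.76 in TMD8 and by 0.996 in DoHH2, and its levels in DMSO differed by 0.01 between the lines. Closest to IFIT2 were SRPK2 (r = 0.972), a kinase of splicing factors, DEPP1 (r = 0.965) and IL10RB (r = 0.963). Their changes in DoHH2 were 1.14, 1.10 and 0.73, against -0.27, -0.67 and -0.24 in TMD8.

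Closest to IFIT3 were IFITM1 (r = 0.998), GSTK1 (r = 0.996) and RGS1 (r = 0.996), with TMD8 minus DoHH2 differences in DMSO of -2.92, -1.26 and -2.14. Like IFIT3 they were thus lower in TMD8 with DMSO. They were named for their likeness to IFIT3 over arrays of both lines, so this shared direction follows from the choice. Closest to IFIT5 were TIGD7 (r = 0.861), CHRNB1 (r = 0.855) and GPR137B (r = 0.849), with changes of -0.55, -0.57 and -0.89 in TMD8 and of 0.01, -0.13 and 0.12 in DoHH2. In each line alone, over 12 arrays, NFKBIA followed IFIT1 at r = 0.969 in TMD8 and 0.986 in DoHH2. TIGD7 followed IFIT5 at r = 0.907 in TMD8 and at 0.520 in DoHH2, where IFIT5 hardly varied. For CHRNB1 and GPR137B these values were 0.953 and 0.904 in TMD8 and 0.150 and 0.333 in DoHH2. SRPK2 followed IFIT2 at r = 0.766 in TMD8 and 0.991 in DoHH2, so likeness within a line varied among the named genes.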

How the data were processed

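RNA of TMD8 and DoHH2 cells was profiled on 24 HumanHT-12 v4 arrays. Raw intensity per probe came from a table the authors deposited before normalization, with 47231 probes and no detection p. A second table of log2 values was deposited by the authors, who per their methods applied quantile normalization, ComBat and LIMMA. It was used as an alternative, and each of the 24 columns was closest to its own array (lowest r = 0.998). Intensities were corrected by normexp (offset 50), quantile-normalized and log2-transformed in R 4.3.3 with limma 3.58.1. A linear model with the 8 groups and the chip was fitted to all arrays, with Benjamini-Hochberg adjustment over 47231 probes and a threshold of 0.05. Each gene was read by the probe with the highest mean, which gave 20046 genes. Of the probes, 30113 had 1 symbol, 8 had several and 17110 had none.

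Members and lists were chosen with earlier results of these data known. Named were every member probe, the largest rise and fall per list and line among genes called with both compounds, the 3 genes most like each member, and IRF9, IRF7, ISG15 and MX1. Others were named after their values were seen, as stated beside them. Arrays carry experiment numbers 1 to 3. Deviations of arrays with the same number correlated at -0.0864 to 0.142, with 1 of 12 pairs above 0.1, so the number was used as a block in an alternative only. A legend in the paper calls the 3 experiments independent, and the labels number them without saying whether cultures were separate, so p-values measure the spread between these arrays. Alternatives were no background correction, an offset of 16, cyclic loess, median scaling, the log2 table, ComBat (own code), no chip term, single chips, single lines, pooled DMSO, bright probes, another probe per gene and leaving out each array. The scripts were tested on simulated data. Figures were drawn with matplotlib 3.10.9 in Python 3.11.15.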

Additional observations from a re-analysis of the deposited data

Results flagged for a closer look

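The response differed between the lines for IFIT1, IFIT2 and IFIT3, with every experiment down in TMD8 and up in DoHH2. The TMD8 change minus the DoHH2 change was -4.27, -4.22 and -1.89 (log2), and the difference was not tested, since the genes were chosen for it.

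The same difference, taken as the mean of both compounds, passed the threshold for 30 of 33 named genes (limma, adjusted p over 47231 probes) and was lower in TMD8 for 28 of them, against 14.8% lower and 15.9% higher over all genes. All of the 33 but IRF7 and ISG15 were picked on these arrays as the largest rise or fall of a list or as most like a member, so this count describes the choice. JAK1, PIAS1 and TRIM25 did not pass. Among receptors and transcription factors it was -0.23 for IFNGR1, -0.49 for IFNGR2, -1.13 for IRF5, -1.23 for IRF7, -1.04 for IRF8 and -0.43 for IRF9. Among inhibitors, sensors and adaptors it was 0.38 for IRF2BP1, -1.17 for PTPN6, -1.88 for TLR7, -0.83 for TANK and -0.60 for IFI16. For interferon-stimulated genes it was -2.65 for ISG15, -2.22 for MX1, -1.69 for HERC5, -0.97 for OAS2 and -0.27 for OASL. For neighbours on chromosome 10 it was -1.36 for STAMBPL1, -0.67 for LIPA and 0.38 for PANK1. The genes named for their likeness to a member were picked on the same arrays, so their values only describe them. They were -2.09 for IFITM1, -0.97 for IL10RB, -1.76 for NFKBIA, -1.78 for DEPP1, -0.59 for PIGK, -1.41 for SRPK2, -0.62 for GSTK1, -0.94 for RGS1, -0.57 for TIGD7, -0.44 for CHRNB1 and -1.02 for GPR137B. Groups of 3 arrays are too small to look for single outlying arrays.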

How the results depend on the processing

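All alternatives kept the direction of IFIT1, IFIT2 and IFIT3 in both lines, given here as the mean of both compounds. Single chips, pooled DMSO and leaving out an array drew on the same values, in which treated and DMSO arrays did not overlap. The direction under these alternatives is therefore no further support. Reading each gene by its probe of largest range left the probes of these genes unchanged, so that alternative did not test them. The dim second IFIT1 probe, which did not show the response, was not used in any alternative. Without background correction, the TMD8 changes of IFIT1, IFIT2 and IFIT3 were -1.66, -0.95 and -0.83, and the DoHH2 change of IFIT2 was 2.86. With an offset of 16 they were -2.25, -1.44 and -1.75 in TMD8, with -0.45 for IFIT5, and 2.52 for IFIT1 and 3.39 for IFIT2 in DoHH2. In the authors' log2 table they were -1.57, -0.89 and -0.84 in TMD8, and 2.19 for IFIT1 and 2.75 for IFIT2 in DoHH2. Median scaling gave 2.16 for IFIT1 and 0.54 for IFIT3 in DoHH2, and chip 1 alone gave 3.22 for IFIT2. The cause of the shift under median scaling was not tested. IFIT5 in DoHH2 ranged from -0.053 to 0.0041, with both signs.

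Over the 5 pathway lists, 5 genes had a change higher in TMD8 than in DoHH2, against 3 with an offset of 16, 9 under median scaling, 1 on chip 1 alone and 3 on chip 2 alone. Of the interferon-stimulated genes, 0 had a change higher in TMD8, against 2 under median scaling and 1 with the probe of largest range, and 1 in place of 2 rose with ITF-A in TMD8 on chip 2 alone. Chip 2 held 1 TMD8 array of each group and chip 1 held 1 DoHH2 array of each group, so the spread came from the other groups and the lone array is assumed to vary like them. TRIM25 in DoHH2 turned to -0.018 under median scaling, from 0.15, and the cause was not tested. With the replicate block by line and experiment, IFIT1 kept -1.89 in TMD8 and 2.37 in DoHH2, and 5 interferon-stimulated genes again fell in TMD8 and rose in DoHH2. The block changed no call of a named gene and moved no count by over 1.5 times. Leaving out each array in turn gave TMD8 changes of -1.95 to -1.83 for IFIT1, -1.17 to -1.10 for IFIT2, -1.15 to -1.04 for IFIT3 and -0.31 to -0.27 for IFIT5. In DoHH2 these were 2.34 to 2.43, 3.04 to 3.12, 0.76 to 0.82 and -0.053 to -0.012. Dim probes, as of IFIT3 in treated TMD8, limit the size of a fall that the arrays can show.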
